A study of Homo sapiens with 12 samples.

Results

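SPOP F133L and SPOP F133V replace the same residue, a phenylalanine, with leucine or with valine, and the cells that expressed them were compared directly on expression arrays. The comparison rests on 4 of the 12 arrays of the series, 2 for SPOP F133L and 2 for SPOP F133V, chosen by the construct named in their labels and not by any measured value. Of the 47323 probes on the array, those with a gene name and a detection p-value under 0.05 on at least 2 of the 12 arrays gave 12227 genes, each read from 1 probe. The other 8 arrays held SPOP F102C (2 arrays), wild-type SPOP (3) and a control vector (3), and served to estimate the spread and to place both mutants. All 12 came from LNCaP-Abl, an established prostate cancer line derived from LNCaP cells by long growth without androgen. Every group, the control vector included, grew in RPMI medium with charcoal-stripped serum, which is poor in steroid hormones, and received doxycycline to switch on the transfected construct. The endogenous SPOP gene of these cells is not described as altered in the labels. The samples of a group are described as biological replicates, but whether they came from separate transfected lines or from cultures of 1 line is not stated in the labels. The p-values therefore reflect only how far these samples spread, and precision is held back by how few arrays there are.

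SPOP is the adaptor that brings substrates to the CUL3 ubiquitin ligase: its MATH domain binds the substrate and its BTB domain binds CUL3. Prostate cancer mutations of SPOP cluster in the substrate-binding cleft of the MATH domain, where the phenylalanines changed in SPOP F133L, SPOP F133V and SPOP F102C all lie, and they weaken binding of substrates such as steroid receptor coactivators and BET proteins. Leucine and valine are both aliphatic and lack the aromatic ring of phenylalanine, and the leucine side chain is the longer of the pair.

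Levels below are log2 intensities after background correction and quantile normalization, and differences are SPOP F133L minus SPOP F133V on that scale. The SPOP F133V arrays were the dimmest of the series: 18530 and 18651 probes were detected on the SPOP F133L arrays and 17485 and 17864 on the SPOP F133V arrays, against 18482 to 19677 on the other 8. The dimmest level still called detected was 5.02 and 5.01 on the SPOP F133L arrays and 5.12 and 5.08 on the SPOP F133V arrays. Whether this gap has a part in the differences of dim genes was not tested, and values with the number of detected probes as a covariate are given where they bear on a result. Over the tested genes, the root mean square difference between an SPOP F133L and an SPOP F133V array was 0.287 to 0.337. It was 0.293 between the SPOP F133L replicates and 0.316 between the SPOP F133V replicates. Replicate 1 of SPOP F133V stood 0.331 and 0.337 from the SPOP F133L arrays, somewhat beyond both replicate distances. Replicate 2 of SPOP F133V stood 0.287 and 0.304 from them, no further than the SPOP F133V replicates stood from each other. Of 18 luminal epithelial markers named on the array, 17 were tested, with a summed linear intensity of 23439 and 23521 on the SPOP F133L arrays and 23178 and 23565 on the SPOP F133V arrays. Only 3 of 16 fibroblast markers, 6 of 16 immune markers and 2 of 10 basal markers passed the detection filter. The fibroblast sum was 213 and 247 on the SPOP F133L arrays and 173 and 175 on the SPOP F133V arrays, mostly from the smooth muscle actin gene ACTA2, at 7.29 and 7.49 in SPOP F133L and 6.89 and 6.97 in SPOP F133V. Of 12 neuroendocrine markers 4 were tested, with a sum of 1573 and 1748 on the SPOP F133L arrays and 1869 and 1807 on the SPOP F133V arrays. Neither of these sums overlapped between the mutants, and their part in the differences below was not tested.

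The question was whether leucine and valine at this residue gave different expression profiles. Almost no gene separated them: at an adjusted p under 0.05 in limma, 1 of 12227 genes (0.00818%) was called, THAP8, which fell in SPOP F133L. No gene rose. At an adjusted p under 0.1, 22 genes passed, 12 higher and 10 lower in SPOP F133L. An unadjusted p under 0.05 was reached by 1326 genes (10.8%), of which 767 were higher in SPOP F133L (6.27%) and 559 lower (4.57%). Counting only whether both arrays of 1 mutant lay on the same side of both arrays of the other, 2495 genes were higher (20.4%) and 2106 lower (17.2%) in SPOP F133L, which gives 37.6% of all genes without overlap.

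A missed threshold does not show that the mutants act alike, so the intervals matter. The 95% interval of the difference lay within 1 log2 unit (2-fold) of 0 for 11812 genes, or 96.6%, and within 0.5 for 6483 genes, or 53%. For the median gene the interval reached 0.33 to either side of the estimate. Estimated differences of single genes, undetected probes included, ran from -1.17 to 1.08, and 11 genes differed by more than 2-fold in the estimate. Among the 8874 genes detected on all 12 arrays, 99.0% had an interval within 1 log2 unit and 65.4% within 0.5, so the bound was tighter for well-detected genes. The interval counts over all tested genes moved with the processing. Over the alternatives of normalization, filter and fit, the count within 0.5 ran from 1471 to 13080, some with other numbers of genes tested. The count within 1 was 10243 with the number of detected probes as a covariate. It was 11407 with only the 4 SPOP F133L and SPOP F133V arrays. The count of 1 called gene moved with the processing, being 0 to 19 over the alternatives of normalization, filter and fit and 0 to 59 with 1 array left out. Of the 12 fits that each left out 1 array, 9 made 0 calls, 2 made 1 call (without replicate 1 or 2 of wild-type SPOP) and the fit without replicate 2 of SPOP F133V made 59.

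**Figure D1:**
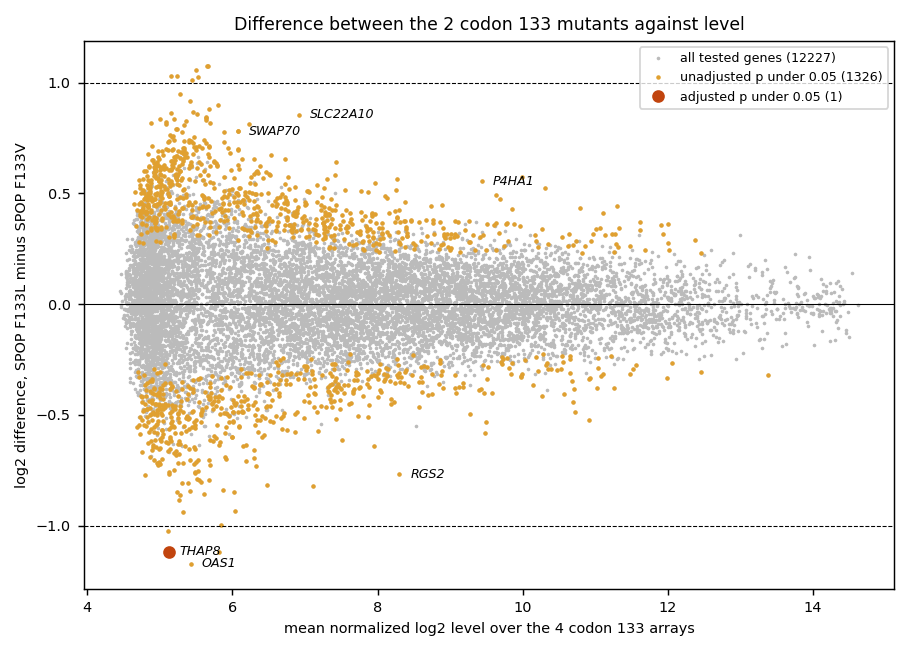
Each point is 1 of 12227 tested genes, with its mean normalized log2 level over the 4 SPOP F133L and SPOP F133V arrays on the x axis and the log2 difference SPOP F133L minus SPOP F133V on the y axis. Orange points (1326) have an unadjusted p under 0.05, the large point is THAP8, the 1 gene called, and dashed lines mark 2-fold; the widest estimates lie among dim genes.

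THAP8 encodes a protein with the THAP type of zinc finger. It had levels of 4.56 and 4.56 on the SPOP F133L arrays and 5.79 and 5.56 on the SPOP F133V arrays. The probe was undetected on both SPOP F133L arrays and detected on both SPOP F133V arrays, so its difference of -1.12 (SE 0.13) is read as at least 1.58-fold lower in SPOP F133L (adjusted p = 0.0306), the bound being set from the dimmest detected signal of each array. THAP8 stood at 4.69 and 4.56 in SPOP F102C, 5.48, 5.14 and 5.21 in wild-type SPOP and 4.98, 4.89 and 4.91 in control vector, so the SPOP F133V arrays were above all 8 other arrays. Against wild-type SPOP, THAP8 fell in SPOP F133L (adjusted p = 0.00549), by an amount not measured below detection, and SPOP F133V differed by 0.40 (adjusted p = 0.0646). The direction of THAP8 held in every alternative run on genes, but its adjusted p passed in only 6 of 25, with a range of 0.0175 to 0.763. The call was lost with the submitters' processed values, where the difference was -0.22 (adjusted p = 0.191). It was also lost with the number of detected probes as a covariate, where the difference was -0.94 (limma adjusted p = 0.379).

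RGS2, which speeds the shutdown of signalling by Gq-type G proteins, was the brightest gene near the top of the list. Its levels were 7.94 and 7.90 in SPOP F133L and 8.68 and 8.68 in SPOP F133V. Both pairs were tight and lay far apart relative to their spread, and the probe was detected on all 12 arrays. The difference was -0.77 (95% interval -0.99 to -0.54) with an adjusted p of 0.0556, just outside the threshold. RGS2 had 7.72 and 7.81 in SPOP F102C, 7.15 to 7.33 over the wild-type arrays and 7.71 to 7.80 over the control vector arrays, so both leucine and valine mutants lay above every other array and SPOP F133V furthest above. Against wild-type SPOP, RGS2 rose by 0.68 in SPOP F133L (adjusted p = 0.00244) and by 1.45 in SPOP F133V (adjusted p = 1.67e-05). RGS2 passed between the leucine and valine mutants in 7 of 26 alternatives, among them the submitters' processed values (adjusted p = 0.00176), no background correction (0.00115) and only the probes detected on all 12 arrays (0.0279). It was at an adjusted p of 0.661 when only the 4 SPOP F133L and SPOP F133V arrays entered the fit. With the number of detected probes as a covariate, RGS2 differed by -0.85 (limma adjusted p = 0.379).

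The 12 genes of lowest p that were higher in SPOP F133L had differences of 0.58 to 1.06 and adjusted p of 0.0556 to 0.0957, and none passed. SLC22A10, of the organic anion transporter family, had 7.37 and 7.31 in SPOP F133L and 6.57 and 6.40 in SPOP F133V, a difference of 0.86 (adjusted p = 0.0556). The other 3 probes of SLC22A10 gave differences of only 0.07 to 0.21, so the size rests on 1 probe. SWAP70, a signalling protein that binds phosphoinositides and actin, had 6.44 and 6.50 in SPOP F133L and 5.68 and 5.70 in SPOP F133V, with no overlap. The wild-type SPOP arrays held SWAP70 at 6.36 to 6.49, close to SPOP F133L. The control vector arrays held it at 5.46 to 5.85, around SPOP F133V, and SPOP F102C lay between at 6.31 and 6.09. AKR1C2, an aldo-keto reductase that inactivates dihydrotestosterone, had 6.34 and 6.44 in SPOP F133L and 5.82 and 5.74 in SPOP F133V. It stood at 6.80 to 6.93 in wild-type SPOP and 7.76 to 7.87 in control vector, and against wild-type SPOP it fell by 0.47 in SPOP F133L (adjusted p = 0.0175) and by 1.08 in SPOP F133V (adjusted p = 0.000125). H3C7, a histone H3 gene whose coding sequence is nearly identical to those of other H3 genes, had 7.16 and 6.96 in SPOP F133L and 6.39 and 6.41 in SPOP F133V.

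Structural and adhesion genes were also among the 12. TUBB3, the class III beta-tubulin best known from neurons, had 5.82 and 5.72 in SPOP F133L and 4.94 and 5.11 in SPOP F133V. SYNM, the intermediate filament protein synemin, had 6.43 and 6.12 in SPOP F133L and 5.48 and 5.52 in SPOP F133V. FERMT2, the integrin activator kindlin-2, had 5.98 and 6.52 in SPOP F133L and 5.26 and 5.44 in SPOP F133V. The remaining members were EVI2A, DNAAF3, an assembly factor of ciliary dynein, FGF23, a hormone of phosphate balance, PPIL6, and BORCS8-MEF2B. BORCS8-MEF2B is a readthrough of neighbouring genes whose signal cannot be told from theirs. PPIL6, FGF23 and BORCS8-MEF2B were undetected on both SPOP F133V arrays, and their differences are read as at least 1.58-fold, 1.10-fold and 1.48-fold higher in SPOP F133L. Of these 12 genes, 6 were detected on all 4 SPOP F133L and SPOP F133V arrays. FGF23 was detected on both SPOP F133L arrays and on no other array, so it passed the detection filter only through the mutant in which it was high. BORCS8-MEF2B was detected on both SPOP F133L arrays and on 1 control vector array only, so it too needed the SPOP F133L arrays to pass the filter.

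The 12 genes of lowest p that were lower in SPOP F133L had estimates of -0.69 to -1.12, with adjusted p of 0.0306 to 0.119, and only THAP8 passed. PTP4A2, DZANK1 and ADGRL3 were detected on both SPOP F133V arrays and on no other array, so they passed the detection filter only through the mutant in which they were high. RGS2, LTBP4, PRICKLE2 and EFL1P1 were detected on all 12 arrays, and for each of these 4 genes both SPOP F133V arrays were above all 8 arrays of the other groups. LTBP4, a binding protein of latent TGF-beta, had 5.74 and 5.44 in SPOP F133L and 6.38 and 6.50 in SPOP F133V. PRICKLE2, a planar cell polarity protein, had 5.15 and 5.19 in SPOP F133L and 5.94 and 5.81 in SPOP F133V. TRIM16L, a close paralogue of TRIM16, had 5.56 and 4.94 in SPOP F133L and 6.60 and 6.14 in SPOP F133V, and both SPOP F133L replicates differed widely from each other. CD28, known as a costimulatory receptor of T cells, had 5.03 and 4.94 in SPOP F133L and 5.96 and 5.62 in SPOP F133V. RABEP2, an effector of endosomal Rab proteins, had 4.93 and 4.71 in SPOP F133L, undetected and below all 8 other arrays, and 5.85 and 5.48 in SPOP F133V, which did not lie clear of them.

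The other 5 were PTP4A2, a phosphatase, ADGRL3, an adhesion G protein-coupled receptor, DZANK1, the pseudogene EFL1P1 and the olfactory receptor gene OR2A14. EFL1P1 can share signal with its parent gene EFL1. PTP4A2 had 4.40 and 4.42 in SPOP F133L and 5.22 and 5.14 in SPOP F133V. The dim level of the PTP4A2 probe on all 12 arrays, 4.40 to 5.22, gives only a bound of at least 1.12-fold lower in SPOP F133L. Of the 12, 6 were undetected on both SPOP F133L arrays and 4 were detected on all 4 SPOP F133L and SPOP F133V arrays.

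**Figure D2:**
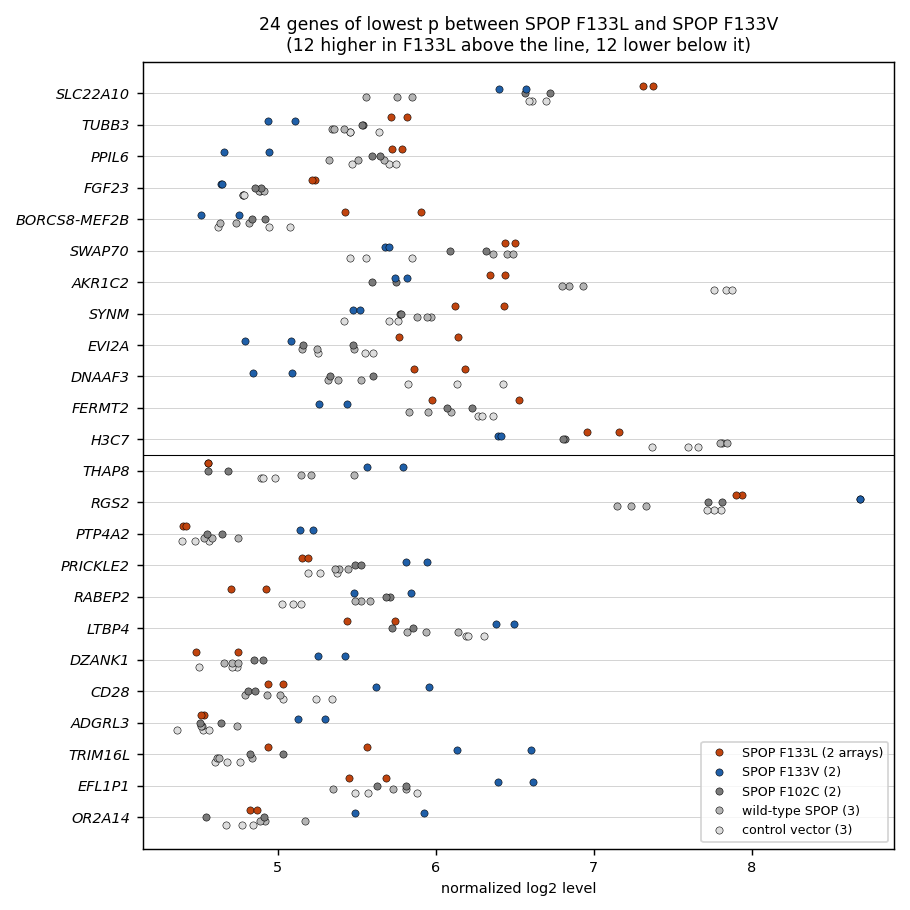
Normalized log2 level (x axis) of the 24 genes of lowest p on each of the 12 arrays, 1 point per array, with SPOP F133L in red, SPOP F133V in blue and the other groups in grey. The 12 genes above the line were higher in SPOP F133L and the 12 below it were lower; for RGS2, LTBP4, PRICKLE2 and EFL1P1, detected on all 12 arrays, the blue points lie to the right of all grey points.

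SPOP itself had 10.04 and 10.27 in SPOP F133L and 9.90 and 9.91 in SPOP F133V, a difference of 0.24 (95% interval -0.02 to 0.51) that did not pass. The wild-type SPOP arrays had 10.21, 10.01 and 10.18 and the control vector arrays 10.23, 10.15 and 10.17. SPOP in SPOP F133L, SPOP F133V and wild-type SPOP thus did not lie clear above the control vector arrays. Of the arrays given here, the SPOP F133L array at 10.27 was the highest. The labels do not say where the probe lies relative to the construct, so the level does not check the labels. SPOPL, the SPOP paralogue, had 6.87 and 7.18 in SPOP F133L and 6.23 and 6.99 in SPOP F133V, with overlapping arrays. A second SPOPL probe, detected on 11 arrays, gave a difference of 0.80 (unadjusted p = 0.036 in limma), against 0.41 for the main one.

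A further 20 genes were followed throughout, as known androgen-induced genes or for their changes in earlier results of these data, and none passed between the leucine and valine mutants. Not all of them separated both mutants from wild-type SPOP: KLK2 differed by 0.52 in SPOP F133L (adjusted p = 0.0434) and 0.05 in SPOP F133V (adjusted p = 0.851), and TMPRSS2 by 0.18 and 0.23 (adjusted p = 0.369 and 0.226). KLK3, the gene of prostate-specific antigen, had 6.77 and 6.87 in SPOP F133L and 6.95 and 6.81 in SPOP F133V, against 5.20, 5.49 and 5.35 in wild-type SPOP. Its difference between the mutants was -0.06 (95% interval -0.38 to 0.26), which keeps it well below 2-fold either way. KLK2, the neighbouring kallikrein, had 6.91 and 7.03 in SPOP F133L and 6.41 and 6.58 in SPOP F133V. The arrays of KLK2 did not overlap, and the difference of 0.47 had a 95% interval of 0.14 to 0.80, but the adjusted p was 0.299. TMPRSS2, a membrane serine protease, differed by -0.05 (-0.31 to 0.22), and FKBP5, a chaperone of steroid receptors, by 0.17 (-0.07 to 0.42).

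Several genes that rose in both mutants against wild-type SPOP had higher estimates in SPOP F133L, without passing. SLC26A3, an anion exchanger, had 8.06 and 8.12 in SPOP F133L, 7.76 and 7.82 in SPOP F133V, 7.30 and 7.33 in SPOP F102C, 5.67, 5.33 and 5.46 in wild-type SPOP and 6.28, 6.20 and 6.37 in control vector. The 5 groups did not overlap for SLC26A3, and SPOP F133L was the highest. SGK1, a serum- and glucocorticoid-induced kinase, had 8.96 and 9.05 in SPOP F133L, 8.76 and 8.71 in SPOP F133V, 8.19 and 8.02 in SPOP F102C and 6.68 to 6.89 over the wild-type arrays. KRT19, an epithelial keratin, had 7.54 and 7.51 in SPOP F133L and 7.20 and 7.05 in SPOP F133V. TRPM8, a cold-sensing ion channel of prostate epithelium, had 9.25 and 9.34 in SPOP F133L and 8.83 and 9.02 in SPOP F133V. A second TRPM8 probe, detected on all 12 arrays, gave a difference of only 0.04, against 0.37 for the main one. Differences between the leucine and valine mutants were 0.30, 0.27, 0.40 and 0.37 for SLC26A3, SGK1, KRT19 and TRPM8, with adjusted p of 0.417, 0.447, 0.369 and 0.428. Each of these 4 genes rose in both mutants against wild-type SPOP, SLC26A3 by 2.60 in SPOP F133L and 2.30 in SPOP F133V.

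SPOCK1, a proteoglycan, leaned the other way, with 7.92 and 7.63 in SPOP F133L and 8.03 and 8.02 in SPOP F133V. FGFR3, a growth factor receptor, differed by 0.28 on its main probe and by -0.40 on its other probe, so no direction can be given. PGC, the pepsinogen gene progastricsin, had 7.62 and 7.95 in SPOP F133L and 7.90 and 7.57 in SPOP F133V, and these arrays overlapped. Of the genes followed, 6 that fell in both mutants against wild-type SPOP also gave no separation. SDCBP2 differed by 0.08 (-0.30 to 0.46), the cell cycle inhibitor CDKN1A by -0.09 (-0.43 to 0.25), CAMK2N1, an inhibitor of CaM kinase II, by 0.14 (-0.35 to 0.63) and the oxidoreductase NQO1 by -0.03 (-0.32 to 0.26). The interferon-induced IFIT1 and IFIT2 differed by -0.15 and -0.20, with intervals of -0.68 to 0.38 and -0.73 to 0.33. IFIT1 was detected on 1 of 2 SPOP F133L arrays and 1 of 2 SPOP F133V arrays. MT1X, a metallothionein, and the replication licensing factor CDT1, whose estimates lay above wild-type SPOP in both mutants, differed by -0.07 (-0.35 to 0.21) and 0.07 (-0.36 to 0.49).

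**Figure D3:**
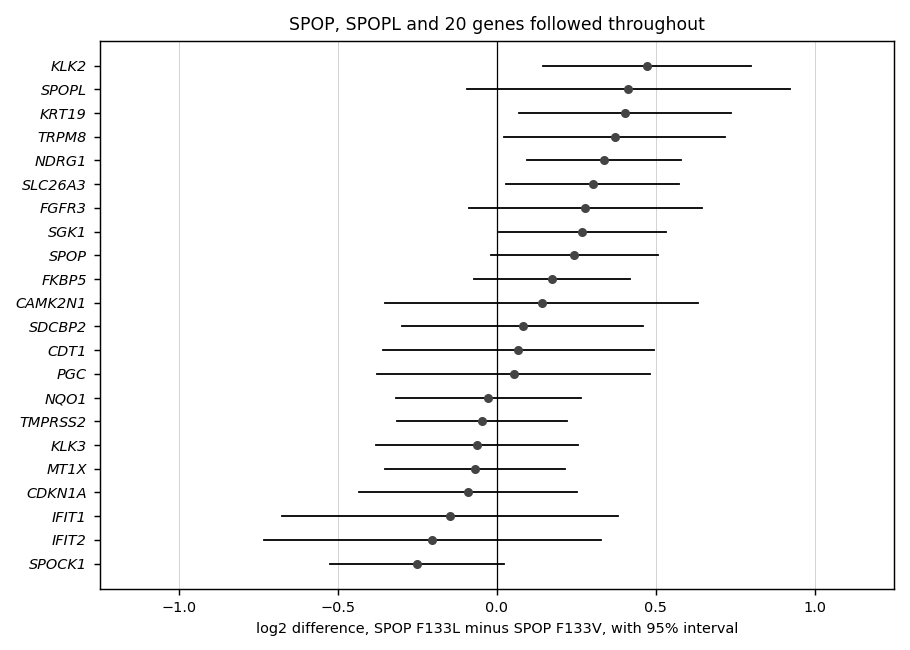
Log2 difference SPOP F133L minus SPOP F133V (point) with its 95% interval (line) for SPOP, SPOPL and 20 genes followed throughout. All estimates lie between -0.25 for SPOCK1 and 0.47 for KLK2, and none passed an adjusted p under 0.05.

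Gene lists were then set against all genes, for which the median difference was 0.01 and 52.5% were higher in SPOP F133L. None of the 30 lists held a gene called between the leucine and valine mutants. The medians of the 24 lists with at least 10 tested genes ran from -0.09 to 0.13. Those of the smaller lists ran from -0.21 for 8 metallothionein and zinc export genes to 0.27 for 3 fibroblast markers, with 0.22 for 8 NF-kB targets. Scaling every array to 1 common median over all probes moved the median of all genes itself to 0.27, and a common median over always-detected probes moved it to -0.06, so list directions are given relative to all genes. Of 27 tested androgen-induced genes, 7 were higher in SPOP F133L and 0 lower at an unadjusted p under 0.05 (25.9%, against 6.27% of all genes higher), with a list median of 0.07. They were KLK2, NDRG1, PTGER4, TRPM8, SGK1, ABCC4, an efflux transporter of cyclic nucleotides and prostaglandins, and APPBP2, which had 8.88 and 9.04 in SPOP F133L and 8.42 and 8.61 in SPOP F133V. PTGER4, a prostaglandin receptor, had 7.77 and 7.70 in SPOP F133L and 7.30 and 7.48 in SPOP F133V. The 7 became 2 without replicate 1 of SPOP F133V, 2 without replicate 2 of SPOP F133L and 2 with the number of detected probes as a covariate. Against wild-type SPOP, 15 of the 27 rose in SPOP F133L and 0 fell. Over all genes 6.55% were called there, 3.23% up and 3.32% down. In SPOP F133V, 13 rose and 0 fell, against 8.15% of all genes called, 3.61% up and 4.54% down. The list medians in these comparisons, which share the wild-type arrays, were 0.45 and 0.44. Of 17 androgen-repressed genes, 3 were lower in SPOP F133L at an unadjusted p under 0.05 (17.6%, against 4.57% of all genes lower) and 0 higher: TMEFF2, a transmembrane protein, DDC, an amino acid decarboxylase, and UGT2B15, which glucuronidates androgens. The 3 became 5 without replicate 1 of SPOP F133V, 1 with the covariate and 0 with a common median of all probes. TMEFF2 had 5.18 and 5.50 in SPOP F133L and 5.86 and 5.79 in SPOP F133V. Its 8.84 to 8.93 in control vector shows the range of the gene in these cells. A second UGT2B15 probe, detected on all 12 arrays, gave a difference of 0.02, against -0.38 for the main one.

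The promoter of KLK3, the best known androgen target, is printed because the half-site of an androgen response element in it lets the list be read against the sequence. It is the RefSeq GRCh38.p14 window from 250 bases before to 50 bases after the gene start, chr19:50854665-50854964 on the plus strand, 5′ to 3′, with AGAACA in capitals, 170 bases before the start.
KLK3 promoter: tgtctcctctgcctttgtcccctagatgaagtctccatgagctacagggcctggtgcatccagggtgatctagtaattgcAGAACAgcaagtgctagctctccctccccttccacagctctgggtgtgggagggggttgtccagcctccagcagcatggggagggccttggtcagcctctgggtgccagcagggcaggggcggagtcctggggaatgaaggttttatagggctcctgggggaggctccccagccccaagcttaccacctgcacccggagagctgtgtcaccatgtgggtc
AGAACA or its reverse complement TGTTCT was in 14.9% of 27305 such windows in the table and in 3 of the 22 androgen-induced genes with a window (13.6%). A match is a description of letters and not a binding site. The windows of THAP8 and RGS2 were searched for the same letters, with 0 matches each, which says nothing of the factor, and the windows printed here and below were chosen with their matches known.

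Among lists with at least 10 tested genes, the list of hypoxia targets and glycolysis genes leaned most to SPOP F133L. Its members have hypoxia-inducible factor and the metabolism of glucose in common. Of its 34 tested genes, 10 were higher in SPOP F133L and 0 lower at an unadjusted p under 0.05 (29.4%, against 6.27% of all genes higher), and for 17 the SPOP F133L arrays lay wholly above the SPOP F133V arrays, with 4 wholly below, where 20.4% of all genes lay above and 17.2% below. The list median was 0.13. P4HA1, a collagen prolyl hydroxylase subunit, had 9.59 and 9.84 in SPOP F133L and 8.99 and 9.33 in SPOP F133V, a difference of 0.56 (adjusted p = 0.173). BNIP3, a mitophagy receptor, had 12.21 and 12.16 in SPOP F133L and 11.83 and 11.81 in SPOP F133V, a difference of 0.36 (adjusted p = 0.269). All 8 other arrays had BNIP3 between 11.75 and 11.98, so SPOP F133L lay above them and SPOP F133V among them. NDRG1, a stress and hypoxia response gene that is also in the androgen-induced list, had 11.80 and 11.76 in SPOP F133L and 11.44 and 11.45 in SPOP F133V. PFKFB4, which sets the level of the glycolysis activator fructose-2,6-bisphosphate, had 6.50 and 6.64 in SPOP F133L and 5.88 and 6.26 in SPOP F133V. KDM3A, a histone demethylase, PFKFB3, ERO1A, an oxidase of the endoplasmic reticulum, ANKRD37, BNIP3L and VEGFA, the vascular growth factor, differed by 0.38, 0.37, 0.32, 0.42, 0.37 and 0.46.

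Other members of the list, named after their values were seen, had estimates near 0: LDHA differed by 0.07, ENO1 by 0.05, GAPDH by -0.01, TPI1 by -0.02, PKM by -0.05 and PGAM1 by -0.10. Against wild-type SPOP, 11 of the 34 rose and 1 fell in SPOP F133L, and 5 rose and 0 fell in SPOP F133V, with list medians of 0.25 and 0.11. P4HA1 rose by 0.57 in SPOP F133L (adjusted p = 0.0178) and stood at 0.01 in SPOP F133V (adjusted p = 0.969), though the difference between the mutants did not pass its own test. The list median stayed above that of all genes, at 0.44 against 0.27, under the scaling to a common median of all probes. The count of 10 became 5 without replicate 1 of SPOP F133L, 4 with the number of detected probes as a covariate and 3 with only the 4 SPOP F133L and SPOP F133V arrays and a replicate block.

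The promoters of P4HA1 and BNIP3, the members of lowest p, are printed because both hold the core letters ACGTG of a hypoxia response element, in capitals together with its reverse complement CACGT. Both windows are from RefSeq GRCh38.p14, P4HA1 at chr10:73096817-73097116 and BNIP3 at chr10:131981874-131982173, both on the minus strand and printed 5′ to 3′ in the direction of the gene. The letters in P4HA1 start 86 bases before the gene start, and in BNIP3 the 2 matches overlap as CACGTG, 134 bases before it.
P4HA1 promoter: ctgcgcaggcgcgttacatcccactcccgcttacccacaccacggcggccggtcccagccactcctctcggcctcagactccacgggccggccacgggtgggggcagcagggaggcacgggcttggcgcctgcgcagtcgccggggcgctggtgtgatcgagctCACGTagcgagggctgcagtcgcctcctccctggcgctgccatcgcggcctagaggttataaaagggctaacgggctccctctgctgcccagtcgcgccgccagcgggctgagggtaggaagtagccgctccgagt
BNIP3 promoter: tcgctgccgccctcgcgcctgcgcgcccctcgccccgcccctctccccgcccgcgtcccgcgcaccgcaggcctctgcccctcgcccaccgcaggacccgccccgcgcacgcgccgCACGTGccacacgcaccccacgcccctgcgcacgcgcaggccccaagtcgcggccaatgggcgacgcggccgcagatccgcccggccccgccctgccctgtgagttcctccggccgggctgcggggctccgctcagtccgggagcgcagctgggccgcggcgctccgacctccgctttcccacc
ACGTG or CACGT was in 21.6% of the 27305 windows and in 14 of the 30 members of the hypoxia and glycolysis list that had a window (46.7%). These letters are counted on both strands, overlap the E-box CACGTG, and describe the list and not its difference between the mutants. The windows of THAP8 and RGS2, both lower in SPOP F133L, were searched for them too. THAP8, the called gene, had 7 matches and RGS2 had 0. The letters were thus not confined to windows of genes higher in SPOP F133L.

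**Figure D4:**
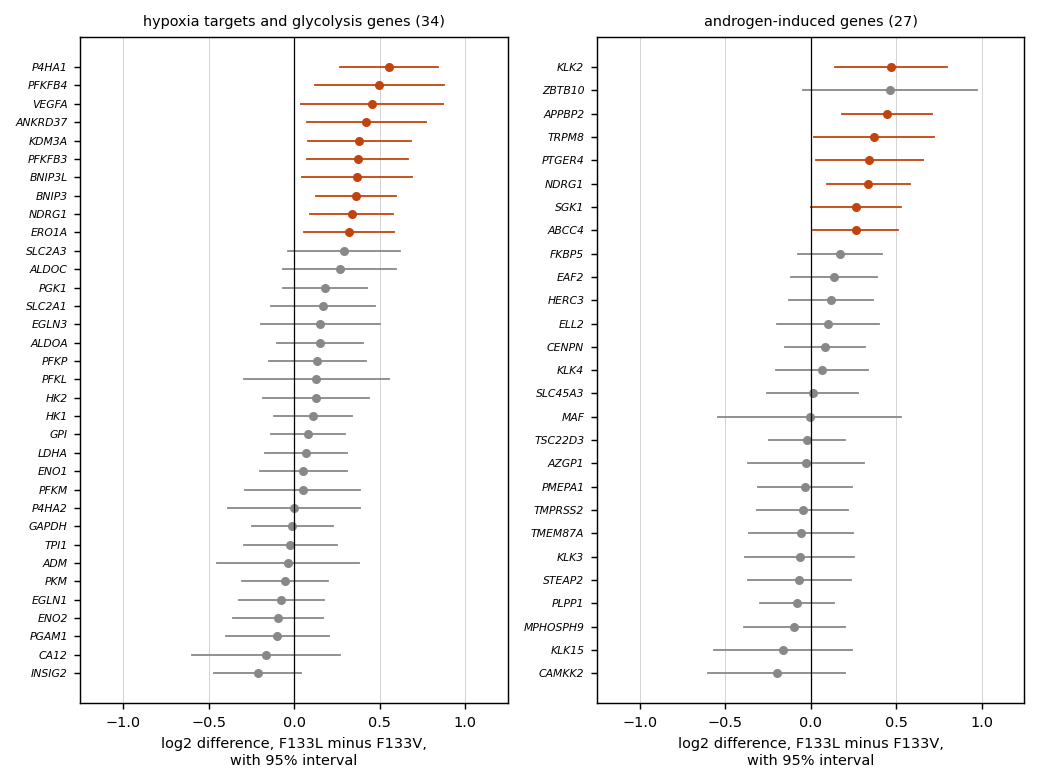
Log2 difference SPOP F133L minus SPOP F133V with 95% intervals for the 34 tested hypoxia and glycolysis genes (left) and the 27 androgen-induced genes (right), sorted by difference. Red marks an unadjusted p under 0.05 with SPOP F133L higher (10 and 7 genes); no gene in either panel passed the adjusted threshold.

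Mitotic genes leaned to SPOP F133V. Of 35 G2/M genes, 4 were lower in SPOP F133L and 0 higher at an unadjusted p under 0.05 (11.4%, against 4.57% of all genes lower), and for 14 the SPOP F133L arrays lay wholly below, with 1 wholly above, where 17.2% of all genes lay below and 20.4% above. The list median was -0.09. PLK1, a kinase of mitotic entry and spindle assembly, had 7.02 and 7.39 in SPOP F133L and 7.92 and 7.72 in SPOP F133V, a difference of -0.61 (adjusted p = 0.192). AURKB, AURKA and the securin gene PTTG1 differed by -0.40, -0.24 and -0.33, and a second probe of PTTG1 by only -0.05. Of 41 G1/S and replication genes, 2 were lower (4.88%), MCM2 and POLE2, and 0 higher. Between 2 and 5 of the G2/M genes were lower with 1 array left out, and 0 were with equal medians of all probes, where the list median equalled that of all genes at 0.27.

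Lipid genes split. Of 21 cholesterol synthesis and uptake genes, 3 were lower in SPOP F133L (MVK, INSIG1 and LSS; 14.3%, against 4.57% of all genes lower) and 0 higher, with a median of -0.08. The 3 became 0 without replicate 1 of SPOP F133V and 0 with the covariate. INSIG1, a sterol-responsive brake on cholesterol synthesis, had 10.58 and 10.72 in SPOP F133L and 11.25 and 11.09 in SPOP F133V. A second INSIG1 probe gave -0.07, and a second LSS probe 0.29, against -0.32 for the main one. Of 22 fatty acid genes, 4 were lower (18.2%), FASN, FADS2, ELOVL5 and LPIN1, and 1 was higher. The 4 became 2 without replicate 1 of SPOP F133V, replicate 1 of SPOP F133L or replicate 2 of SPOP F133L, and 0 with the covariate or with only the 4 SPOP F133L and SPOP F133V arrays. FASN, the fatty acid synthase, had 13.15 and 13.30 in SPOP F133L and 13.63 and 13.46 in SPOP F133V. The higher one was ACSL4, which activates arachidonic acid, higher by 0.64 in the estimate (adjusted p = 0.152) and with arrays that did not overlap. Of 8 metallothionein and zinc export genes, 1 was higher in SPOP F133L in the estimate and 7 lower. The list median was -0.21, and 52.5% of all genes were higher. MT1G was the 1 gene under an unadjusted p of 0.05 (12.5%, against 4.57% of all genes lower). That count became 2 without background correction, and 0 with the covariate or with only the 4 SPOP F133L and SPOP F133V arrays. With equal medians of all probes the list median was 0.15, where that of all genes was 0.27.

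Stress and signalling lists were small in effect. Of 22 immediate early genes, 3 were higher in SPOP F133L (13.6%, against 6.27% of all genes higher) and 0 lower, DUSP2, a MAP kinase phosphatase, and the Kruppel-like factors KLF6 and KLF10. The other 2 probes of KLF10 gave -0.29 and 0.31, so its direction is uncertain. DUSP2 had 8.21 and 8.25 in SPOP F133L and 7.81 and 7.56 in SPOP F133V. Of 24 p53 target genes, 3 were higher, PLK2, TIGAR and SERTAD1 (12.5%), and 0 lower. Without replicate 1 of SPOP F133V this became 1 higher and 2 lower, and with the covariate 0 were higher. Of 35 interferon-stimulated genes, 2 were higher (5.71%), IFIH1 and IFIT5, and 3 lower (8.57%), among them OAS1, the antiviral oligoadenylate synthetase. OAS1 had 4.78 and 4.89 in SPOP F133L and 5.98 and 6.04 in SPOP F133V. Its main probe was undetected in SPOP F133L, so it is read as at least 1.99-fold lower (adjusted p = 0.121), and a second OAS1 probe gave -0.29. Of 38 replication-dependent histone genes, 3 were higher (7.89%, near the 6.27% of all genes) and 0 lower between the mutants. The 3 became 1 without replicate 1 of SPOP F133V and 1 with the covariate. Against wild-type SPOP, where 3.32% of all genes fell in SPOP F133L and 4.54% in SPOP F133V, 18 fell in SPOP F133L and 19 fell in SPOP F133V, with 0 rising in either.

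SPOP's own network gave little. Of 31 transcripts of known SPOP substrates, 3 were higher in SPOP F133L (9.68%, against 6.27% of all genes), ACSL4, the chromatin reader ZMYND11 and the BET gene BRD2, and 1 lower, FASN, with a median of 0.02. The 3 became 1 without replicate 1 of SPOP F133L and 5 without replicate 2 of SPOP F133V. SPOP acts on the proteins, so these values concern only their transcripts. The main and the other ZMYND11 probes differed in sign. BRD2 had 10.97 and 10.90 in SPOP F133L and 10.73 and 10.67 in SPOP F133V. Of 23 SPOP, CUL3 ligase and BTB adaptor genes, only UBA3 had an unadjusted p under 0.05 on its main probe (4.35%, against 4.57% of all genes lower). With the number of detected probes as a covariate 0 were lower, and with equal medians of all probes 9 were higher and 0 lower. UBA3 is a subunit of the NEDD8-activating enzyme that switches on cullin ligases. UBA3 averaged 9.03 in SPOP F133L and 9.53 in SPOP F133V, and had 9.46 to 9.90 over the other 8 arrays, so SPOP F133L lay below all of them. CUL3 was not analysed here. Of 23 endoplasmic reticulum chaperone and unfolded protein response genes, 2 were higher in SPOP F133L (8.70%) and 1 lower (4.35%) at an unadjusted p under 0.05. Over all genes 6.27% were higher and 4.57% lower, and the list median was -0.03. HSPA5, the main chaperone of the endoplasmic reticulum, had 6.44 and 6.73 in SPOP F133L and 6.01 and 5.99 in SPOP F133V. None of 41 respiratory chain genes and none of 27 proteasome genes had an unadjusted p under 0.05 between the mutants in limma.

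**Figure D5:**
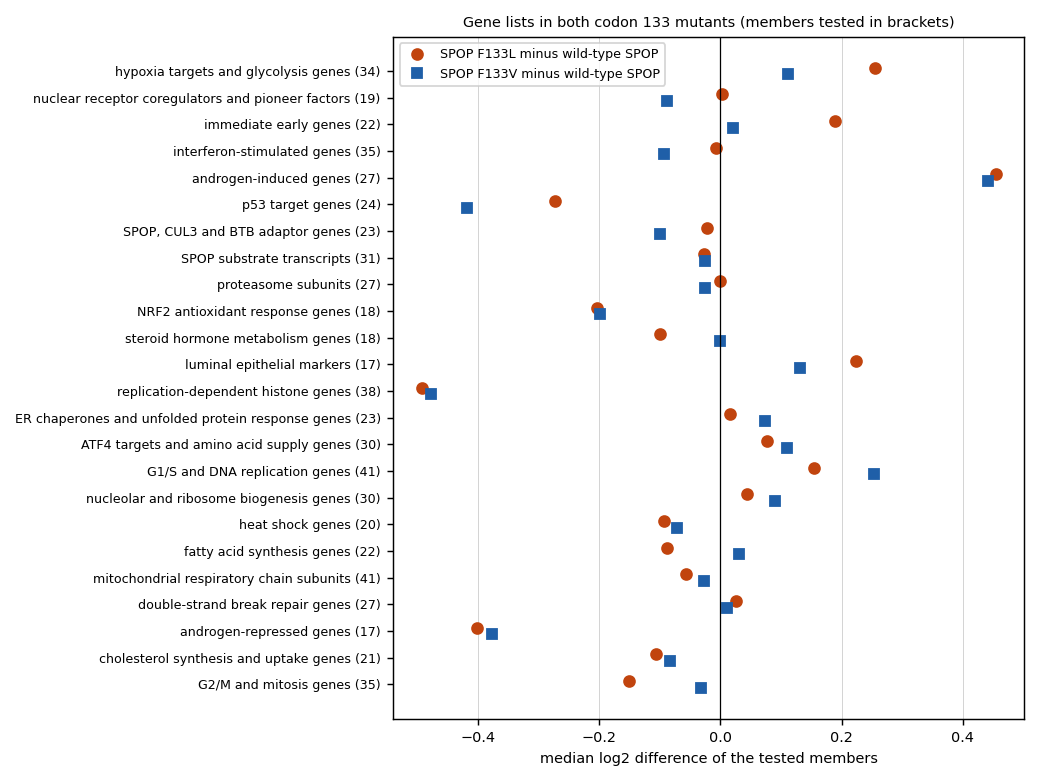
Median log2 difference from wild-type SPOP of the tested members of 24 gene lists, for SPOP F133L (red circles) and SPOP F133V (blue squares), sorted by the list median of SPOP F133L minus SPOP F133V. Both comparisons share the wild-type arrays; androgen-induced genes stood at 0.45 and 0.44, histone genes at -0.49 and -0.48, and hypoxia and glycolysis genes at 0.25 and 0.11.

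Both mutants were also set beside the other groups. Against wild-type SPOP, 801 genes were called for SPOP F133L, 395 up and 406 down, and 997 for SPOP F133V, 442 up and 555 down. These counts share the wild-type arrays and are given side by side only. With the number of detected probes as a covariate they became 384 and 5. Against SPOP F102C, 0 genes were called for SPOP F133L in limma (1122 at an unadjusted p under 0.05), and 8 for SPOP F133V (0.0654%), 5 higher (0.0409%) and 3 lower (0.0245%) in SPOP F133V. Among the 8 were THAP8, RGS2, TRIM16L and CD28, all higher in SPOP F133V than in SPOP F102C, RGS2 by 0.92 and TRIM16L by 1.44. The comparison with SPOP F102C uses the same SPOP F133V arrays by which these genes were named above. Their return in it is therefore not a separate check.

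Genes chosen on arrays of other groups only give a look at SPOP F133L and SPOP F133V that the choice did not use. In a fit of the SPOP F102C and wild-type SPOP arrays alone, 123 genes were higher in SPOP F102C. The mean level of these 123 was 7.86 and 7.87 in SPOP F133L, 7.75 and 7.75 in SPOP F133V, 7.83 and 7.82 in SPOP F102C, 6.99 to 7.04 over the wild-type arrays and 7.42 to 7.49 over the control vector arrays. Both leucine and valine mutants thus stood close to SPOP F102C on these genes. SPOP F133L was the higher of the pair for 84 of the 123 (68.3%, against 52.5% of all genes), with a median difference of 0.11, 23 genes higher and 1 lower at an unadjusted p under 0.05, and 0 called. The 129 genes lower in SPOP F102C had means of 7.71 and 7.75 in SPOP F133L and 7.68 and 7.68 in SPOP F133V. SPOP F133L was the higher of the pair for 76 of the 129 (58.9%), with a median difference of 0.05. At an unadjusted p under 0.05, 10 were higher and 5 lower, where 6.27% of all genes were higher and 4.57% lower, and 0 were called. With 1 wild-type array left out, only 1, 59 or 36 genes in all were called between SPOP F102C and wild-type SPOP, against 252 with every array. The length of these lists thus changed strongly with the arrays in the fit. Whether the same genes stayed in them was not tested.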

How the data were processed

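Per the labels, RNA of 12 samples in 5 groups was biotin-labelled and read on Illumina bead arrays. The authors deposited, per the file headers, the mean bead intensity of every probe on each array (linear scale) with its detection p-value. They also deposited processed log2 values, made with lumi per the submitters' processing notes. Its version, the exact transformation and the background treatment of the intensities are not given in the sources. The processed log2 values served as an alternative.

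Background correction and quantile normalization of the intensities used the neqc function (limma 3.58.1, R 4.3.3, offset 16). Probes detected at p under 0.05 on at least 2 of 12 arrays were kept, 23133 of 47323. Per the platform annotation 30113 probes had 1 symbol, 8 had several and 17202 had none, and 30074 of the first matched the RefSeq gene table of GRCh38.p14. The probe of highest mean stood for each of 12227 genes. A model of 5 group means over all 12 arrays was fitted with lmFit and eBayes (7 residual and 4.67 prior degrees of freedom), adjusted by Benjamini-Hochberg over all genes and called at an adjusted p under 0.05. The procedure was tested on simulated data. A probe undetected on both arrays of 1 mutant gives only a bound.

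Named genes were the 12 of lowest p in each direction whose arrays did not overlap, 24 genes followed throughout (22 tested), and up to 4 members of lowest p of each list described, with a few more members named after their values were seen. The compared groups, genes and 30 lists were chosen with earlier results of these data known. Alternatives covered normalization, background, filter, probe choice, arrays in the fit, weights, a covariate, a replicate block and each array left out. Replicate numbers were not treated as pairs.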

Additional observations from a re-analysis of the deposited data

Results flagged for a closer look

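THAP8 was the 1 gene for which the contrast with wild-type SPOP differed between the leucine and valine mutants by the test of the difference itself. Its log2 difference SPOP F133L minus SPOP F133V was -1.12 (limma adjusted p = 0.0306), with both SPOP F133L arrays undetected, so that it is read as at least 1.58-fold lower in SPOP F133L. Its adjusted p ranged from 0.0175 to 0.763 over 25 alternatives, since its probe is left out where detection on all 12 arrays is asked for.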

How the results depend on the processing

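Depth of signal limits these comparisons: many of the genes of lowest p were near background, groups held 2 arrays, and slides and scan dates are not in the file headers used here, so the slide block was not run. An alternative of testing all kept probes one by one, unnamed ones included, was added after seeing the data and called 0.

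Between SPOP F133L and SPOP F133V the count of 1 gene became 3 without background correction, 19 with equal medians of all probes, 0 with equal medians of probes detected on all arrays, 2 with offset 50, 7 without a detection filter, 4 with probes detected on all 12 arrays, 8 with the mean of a gene's probes, and 0 with only the 4 SPOP F133L and SPOP F133V arrays, only the 6 mutant arrays, array weights or the detected-probes covariate. The 19 calls with equal medians were 19 higher and 0 lower in SPOP F133L, against 0 higher and 1 lower as reported, and at an unadjusted p under 0.05 the split was 2922 higher and 67 lower there, 358 and 1037 with equal medians of detected probes, and 767 and 559 as reported. List genes called became 3 with equal medians of all probes. Genes with an interval within 1 log2 unit became 19622 without a detection filter, where more genes were tested. They became 8811 with probes detected on all 12 arrays, where fewer genes were tested. With the covariate they became 10243, and with only the 4 SPOP F133L and SPOP F133V arrays 11407.

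Against wild-type SPOP, the 801 of SPOP F133L became 1460 without background correction, 1425 with equal medians of all probes (103 up, 1322 down), 1273 with offset 50, 1314 with the authors' processed values and 384 with the covariate, and its split was 680 up and 307 down with equal medians of detected probes. The 997 of SPOP F133V became 1559 without background correction, 6795 with equal medians of all probes (75 up, 6720 down), 2305 with equal medians of detected probes (1877 up, 428 down) and 5 with the covariate. Against SPOP F102C, the 0 of SPOP F133L became 54 without background correction, 24 with offset 50, 23 with processed values and 7 with probes detected on all 12 arrays, and the 8 of SPOP F133V became 1666 with equal medians of all probes, 2 with equal medians of detected probes, 5 with processed values, 1 with probes detected on all arrays and 0 with the 6 mutant arrays or the covariate. The 252 of SPOP F102C against wild-type SPOP became 1309 without background correction, 600 with equal medians of all probes, 1075 with offset 50, 1150 with processed values and 781 with probes detected on all arrays. The 728 of wild-type SPOP against control vector became 1451 without background correction, 1370 with offset 50 and 1166 with processed values. The cause of these moves was not tested.

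With 1 array left out, counts ran over 0 to 59 (SPOP F133L against SPOP F133V), 279 to 799 and 245 to 1064 (SPOP F133L and SPOP F133V against wild-type SPOP), 0 throughout and 0 to 59 (SPOP F133L and SPOP F133V against SPOP F102C), 0 to 59 (SPOP F102C against wild-type SPOP), 342 to 497 (wild-type SPOP against control vector), 0 to 2 (list genes) and 10983 to 11805 (intervals within 1).

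The replicate numbers of the titles did not pair the samples: deviations of same-numbered arrays correlated at -0.06 to 0.04. With the replicate number as a block over all 12 arrays, 1 gene was called between the leucine and valine mutants, 408 for SPOP F133L and 512 for SPOP F133V against wild-type SPOP, and with the block in the 4 SPOP F133L and SPOP F133V arrays 0.

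No gene whose difference between the leucine and valine mutants changed sign had passed as reported. With equal medians of all probes, which moved the median of all genes to 0.27, they were KLK3 0.23, TMPRSS2 0.30, SPOCK1 0.080, CDKN1A 0.26, IFIT1 0.024, NQO1 0.33, MT1X 0.28, MCM2 0.016, POLE2 0.019, CHAF1A 0.038, AURKA 0.12, MT1G 0.012, MT1E 0.12, MT2A 0.14, SLC30A1 0.16, LSS 0.012 and ELOVL5 0.015. With equal medians of detected probes SDCBP2 was -0.058. With the mean of probes FGFR3 was -0.063, NQO1 0.064 and ZMYND11 -0.029. With the covariate KLK3 was 0.13, PGC -0.023, CDKN1A 0.024, IFIT1 0.26 and NQO1 0.16. With 1 array left out, KLK3 ran over -0.13 to 0.0072, SDCBP2 -0.085 to 0.25, CDKN1A -0.31 to 0.13, IFIT1 -0.49 to 0.20, TMPRSS2 -0.17 to 0.075, PGC -0.11 to 0.22, IFIT2 -0.60 to 0.19, MT1X -0.18 to 0.041, CAMK2N1 -0.18 to 0.46 and CDT1 -0.15 to 0.28.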
